A study of Danio rerio with 6 samples.

Results

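The large subunit of the cytosolic ribosome is built from ribosomal RNA and a set of proteins whose genes are named rpl, or rplp for those of its acidic stalk. Their mRNA was followed here in zebrafish embryos of the line Tg(fli1a:eGFP), in the GFP+ cells, at 28 hours after fertilization. Members were the rows of the expression table whose gene name is rpl or rplp followed by a number and an optional letter and digit, in upper or lower case. That gave 49 of 21837 rows, with 48 different names, because rpl37 has 2 rows. The optional letters also admit 3 related genes, rpl7l1, rpl22l1 and rplp2l, whose names mark them as like another member. All 49 rows reached the mean of 1 FPKM over the 6 libraries that a gene needed to be tested. The lowest means were those of the second rpl37 row at 5.52 FPKM and of rpl22 at 29.4 FPKM.

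The study set embryos given a control morpholino (control MO) against embryos given a clec16a morpholino (clec16a MO), with 3 libraries each. Both groups carry the same transgene, were taken at the same age, and are described as not cultured. A morpholino is an antisense oligomer injected into the early embryo, where it keeps its target mRNA from being spliced or translated. The transgene marks cells by the activity of fli1a regulatory sequence, so the cells are defined by a promoter that is used in endothelium and in some blood and other mesenchymal cells. The series asks how clec16a, which encodes an endolysosomal membrane-associated protein, acts in hematopoietic stem and progenitor cells. Nothing in the labels ties a library to a clutch or a day, so the p-values measure the spread between these libraries, which may be technical.

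Most ribosomal proteins are present in a single copy per ribosome, the acidic stalk proteins being an exception, and their genes are usually expressed together and at high levels. Their mRNAs begin with a run of pyrimidines, the terminal oligopyrimidine or TOP element, through which the mTOR pathway sets how much they are translated. In people, loss of a single copy of any of several ribosomal protein genes causes Diamond-Blackfan anaemia, in which red cell precursors fail, and in human cells free RPL5 and RPL11 bind MDM2 and so raise p53. Most of the large subunit proteins are loaded in the nucleolus with the help of assembly factors, and a few, such as Rplp0, Rpl10 and Rpl24, join late in the cytoplasm in yeast.

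The values are FPKM, which scale fragments to the length of the transcript and to the size of the library, so that levels of different genes can be set side by side. Depth is unknown, since FPKM carry no totals. Apart from genotype and title, the labels describe the libraries of both groups in the same words. The titles differ fully by group: those starting with NegaP all belong to clec16a MO libraries, and those starting with Exp2D all to control MO libraries. What the title names stand for is not stated. Whether libraries of unlike title were prepared alike, or quantified with the same settings and annotation, was not tested. Every difference below is given with that limit. The targeted gene read 14.4, 14.1 and 14.3 FPKM in control MO replicates 1 to 3 and 5.68, 5.57 and 4.24 FPKM after the clec16a MO (log2 difference -1.32, limma adjusted p = 5.5e-05); the difference was -0.63 with median centring and -0.80 with quantile normalization. Differences between the groups were very common: of 12153 tested genes, 6638 were called lower and 3239 higher in the clec16a MO libraries. Markers of other cells moved with the groups. All 10 erythroid markers were higher, with a summed level of 929 to 1044 FPKM in the control MO libraries and 13966 to 21451 FPKM after the clec16a MO. Of the 15 rows of macrophage and neutrophil markers 12 could be tested and 11 were higher, from a sum of 23.2 to 24.9 FPKM to one of 2880 to 4216 FPKM, and mpx and mpeg1.1 were listed at 0 in every control MO library. These rows come from 8 listed markers, because the name mfap4, in lower or upper case, recurs. Repeated rows of mfap4 weigh on the count and the sum, the largest averaging 1050 and 968 FPKM after the clec16a MO. The tested marker that did not pass was lcp1. All 9 endothelial markers were lower, at 2658 to 2763 FPKM and 605 to 731 FPKM in sum. Of these, erg was listed at 0 in every clec16a MO library, while etv2, fli1a and kdrl averaged 366, 107 and 19.1 FPKM there. The 6 skeletal muscle markers were lower too, at 2405 to 2427 FPKM and 17.3 to 25.9 FPKM, as were the 5 epidermal markers, at 1069 to 1093 FPKM and 86.9 to 99.3 FPKM. With median centring etv2 among the endothelial markers was called higher (0.31, limma adjusted p = 0.034) and epcam among the epidermal markers was at -0.03 (limma adjusted p = 0.90). The part of these markers in the results on ribosomal protein genes was not tested.

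Most large subunit genes were much lower in the clec16a MO libraries, but not by the same amount. limma called 46 of the 49 rows lower, where 54.6% of all tested genes were called lower, and 2 rows higher, against 26.7% of all tested genes. The remaining row, rpl22l1, did not pass. The median log2 difference was -3.30 over the members and -0.66 over all tested genes. A fall of at least 3 on the log2 scale was called for 26 members, against 6.25% of all tested genes. The differences ran from -8.19 for rpl26, which has an exact 0 in clec16a MO replicate 3 and was at -7.15 without that library, beside -7.07 for rplp2l, to 2.91 for rpl7l1. Their SD was 2.17 among members and 1.80 among all tested genes. In these bulk samples, fewer cells of a type and less RNA per cell cannot be told apart.

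The clec16a MO libraries all lay below the control MO libraries for 46 members, where 56.1% of all tested genes did so, and all above for 2 members, against 27.6%. Most members are abundant. Among all 1670 tested genes whose mean reached 50 FPKM, 37.7% were called lower, with a median log2 difference of 0.36. Of the 45 members at that level, 43 were called lower, with a median of -3.30. A fall of at least 3 on the log2 scale, which genes of low level cannot show, was called for 24 of these 45. The share among the 1670 genes was 10.5%. The mean of 50 FPKM is taken over all 6 libraries, so a gene can reach it through either group alone. rpl26 reached it with 1230 FPKM in the control MO and 5.43 FPKM in the clec16a MO libraries. The erythroid marker cahz reached it with 6.77 and 2682 FPKM. The cut therefore depends on the difference itself and does not match the members to genes of like control MO level. Scaling moves all genes together. Centring each library on its median shifts the median difference of all genes from -0.66 to 0.03. It left 41 members called lower, against 38.1% of all tested genes, and 4 called higher, against 39.7%. With quantile normalization the counts were 47 lower and 2 higher, against 39.8% and 38% of all tested genes.

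**Figure D1:**
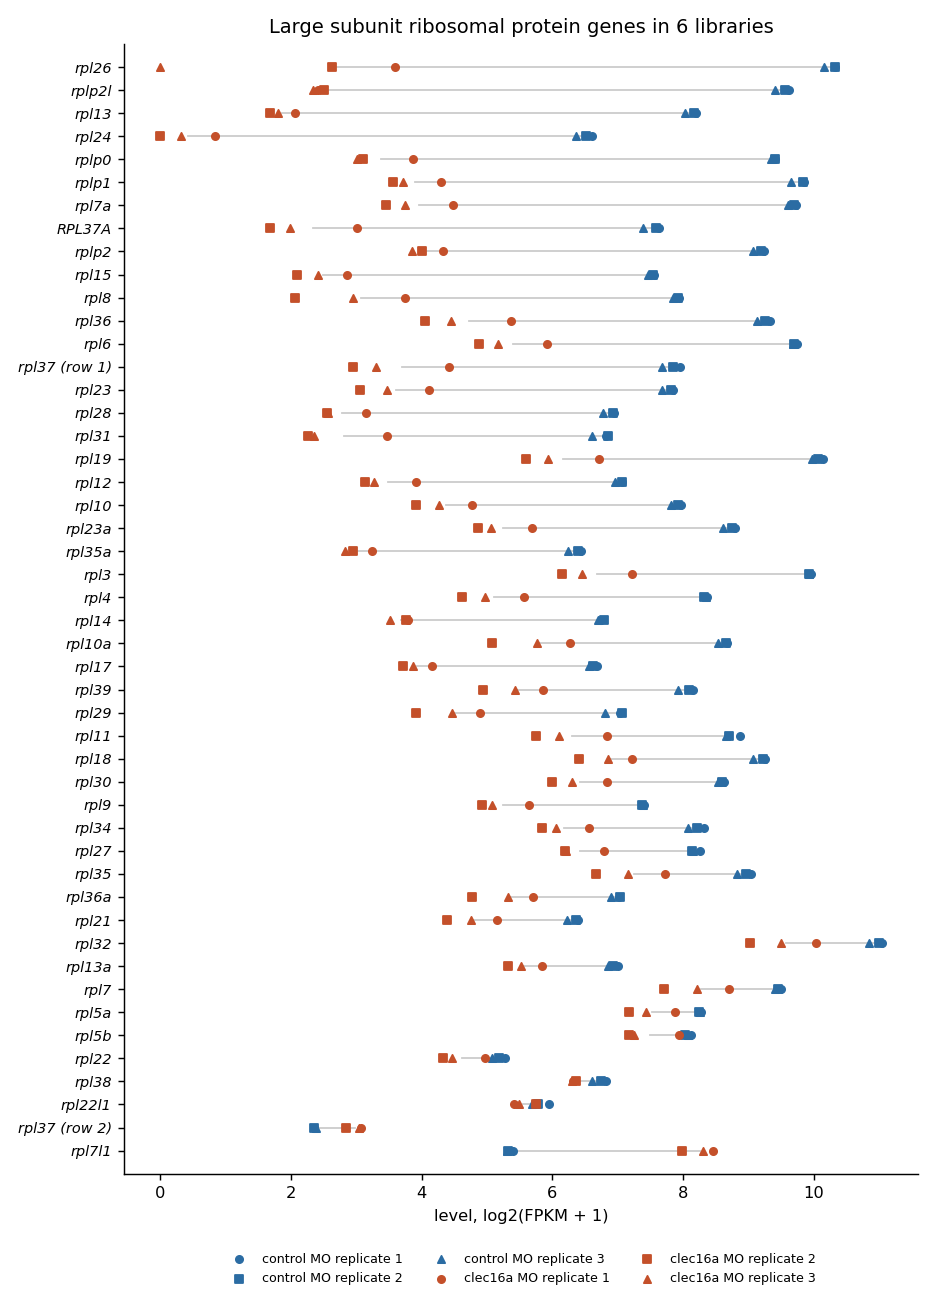
Level of 48 of the 49 large subunit rows in each library, as log2(FPKM + 1), ordered by the log2 difference with the largest fall at the top; grey lines join the log2 of the 2 group means. The control MO points of a gene nearly coincide, while the clec16a MO points spread, with replicate 1 usually the highest of its group.

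The genes of the stalk proteins, which stand out from the large subunit and recruit the elongation factors, were among the members with the largest falls. rplp0, which anchors the stalk, read 674, 675 and 651 FPKM in the control MO libraries and 13.6, 7.57 and 7.03 FPKM after the clec16a MO (log2 difference -6.06, SE 0.22, limma adjusted p = 5.2e-07). Its partner rplp1 read 921, 908 and 805 FPKM against 18.6, 10.9 and 12.1 FPKM. rplp2, the other partner, read 601, 586 and 538 FPKM against 19.0, 15.03 and 13.4 FPKM. In none of the stalk genes did a clec16a MO library come near a control MO library. rplp2l, named as rplp2-like, read 788, 756 and 679 FPKM against 4.33, 4.68 and 4.06 FPKM, a 170.1-fold difference of the means (log2 difference -7.11, SE 0.10, limma adjusted p = 1.9e-08). rpl12, which sits with Rplp0 at the stalk base, fell less, from 130 ± 5.05 to 10.1 ± 3.41 FPKM (SD, n = 3), a 12.8-fold difference.

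Of the genes of the 5S particle, rpl5a and rpl5b stood at the other end. Rpl5 and Rpl11 bind 5S ribosomal RNA and enter the subunit with it; zebrafish has 2 genes for the former, rpl5a and rpl5b. rpl5a read 308, 303 and 306 FPKM in the control MO libraries and 233, 143 and 171 FPKM after the clec16a MO, a 1.67-fold difference of the means (log2 difference -0.77, SE 0.17, limma adjusted p = 0.0041). rpl5b read 276, 259 and 269 FPKM against 244, 143 and 151 FPKM (log2 difference -0.62, SE 0.20, limma adjusted p = 0.022). For both genes clec16a MO replicate 1 came closest to the control MO libraries without reaching them. rpl11 fell further, from 468, 417 and 400 FPKM to 113, 53.001 and 67.3 FPKM, a 5.52-fold difference (log2 difference -2.52, SE 0.26, limma adjusted p = 6.4e-05). The calls of the rpl5 genes rest on the scaling. With quantile normalization both were called lower, rpl5a at -1.03 and rpl5b at -0.86 (limma adjusted p = 0.00026 and 0.0024). With median centring neither was called, rpl5a being at -0.08 and rpl5b at 0.07 (limma adjusted p = 0.68 and 0.75). The rpl5b call also ended without control MO replicate 1, 2 or 3, or without clec16a MO replicate 2 or 3 (limma adjusted p = 0.067, 0.056, 0.066, 0.066 and 0.078).

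The mRNAs of proteins near the peptidyl transferase centre, where peptide bonds form, fell by intermediate to large amounts. rpl3, whose product reaches towards the centre, read 989, 970 and 971 FPKM and then 147, 69.9 and 86.4 FPKM, a 9.66-fold difference (log2 difference -3.33, SE 0.25, limma adjusted p = 1.3e-05). rpl10, which joins late and completes the active subunit, read 248, 240 and 224 FPKM against 26.4, 14.1 and 18.3 FPKM. rpl8 read 245, 243 and 228 FPKM against 12.4, 3.15 and 6.72 FPKM, a 32.1-fold difference. Relative to their mean, the clec16a MO libraries of these 3 genes differed most for rpl8, where replicate 1 was the highest and replicate 2 the lowest.

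The tunnel through which the new peptide leaves, and its rim, gave a wide range. rpl26, whose product lies at the rim, read 1278, 1277 and 1136 FPKM in the control MO libraries and 11.1, 5.18 and 0 FPKM after the clec16a MO (log2 difference -8.19, SE 0.82, limma adjusted p = 6.0e-05). It was the second most abundant member in the control MO libraries and the 44th of 49 in the clec16a MO libraries. An exact 0 can be a failed estimate in such a table, so no fold is given for it. rpl19, which also bridges to the small subunit, read 1122, 1069 and 1004 FPKM against 104, 47.5 and 59.7 FPKM. Both rpl4 and rpl17 reach into the tunnel; rpl4 fell from 324 ± 4.52 to 33.3 ± 11.6 FPKM and rpl17 from 97.2 ± 4.28 to 14.2 ± 2.47 FPKM (SD, n = 3). At the rim, rpl23a, a docking site for factors that receive the peptide, fell from 421 ± 28.7 to 37.1 ± 11.9 FPKM and rpl31 from 108 ± 9.73 to 5.98 ± 3.53 FPKM. rpl39, which encodes a short protein in the tunnel wall, fell 6.18-fold, from 264 ± 21.3 to 42.8 ± 13.5 FPKM. The smallest fall of these 8 genes was that of rpl35, with 522, 498 and 451 FPKM against 211, 100.1 and 142 FPKM (log2 difference -1.76, SE 0.25, limma adjusted p = 0.00039). All 8 were called lower, against 54.6% of all tested genes, with a median log2 difference of -3.41; this role was rearranged after the values had been seen.

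The large subunit genes known from Diamond-Blackfan anaemia, taken with both rpl5 genes, make 10 members, and all 10 were called lower, against 54.6% of all tested genes. With median centring 8 were, without the rpl5 genes, against 38.1% of all tested genes. Without centring the median log2 difference of the 10 was -2.44, beside -3.30 for all members. Besides rpl5a, rpl5b, rpl11, rpl26, rpl31 and rpl35, these are rpl15, rpl18, rpl27 and rpl35a. rpl15 read 187, 185 and 176 FPKM against 6.28, 3.27 and 4.34 FPKM, a 39.5-fold difference (log2 difference -5.06, SE 0.19, limma adjusted p = 5.7e-07). rpl35a read 85.6, 82.7 and 74.8 FPKM against 8.47, 6.70 and 6.11 FPKM, an 11.4-fold difference. rpl18 and rpl27 fell less, 5.03-fold and 3.40-fold, from 580 ± 36.1 to 115 ± 31.6 FPKM and from 289 ± 13.2 to 84.9 ± 21.5 FPKM (SD, n = 3).

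Other large falls came from genes whose proteins are spread over the subunit. rpl24 encodes a late-joining protein that bridges to the small subunit. It read 96.8, 90.5 and 81.0 FPKM in the control MO libraries and 0.791, 0 and 0.247 FPKM after the clec16a MO (log2 difference -6.11, SE 0.22, limma adjusted p = 4.9e-07). It had the lowest mean of all members in the clec16a MO libraries. rpl13 read 293, 286 and 261 FPKM against 3.18, 2.18 and 2.49 FPKM, a 106.9-fold difference. rpl7a, RPL37A, rpl36 and rpl6 fell 56.2-fold, 45.4-fold, 23.8-fold and 20.4-fold. Taken by size, 8 members fell over 50-fold or were listed at 0 in a clec16a MO library, 15 fell 10-fold to 50-fold, 15 fell 3-fold to 10-fold, and 9 had means lower by 3-fold or less. Among the 10 members with the most negative differences were rpl26, rplp2l, rpl13, rpl24, rplp0, rplp1, rpl7a, RPL37A and rplp2. Of the ones not yet described, rpl23, rpl28, rpl37, rpl9, rpl10a, rpl14, rpl29, rpl30, rpl34 and rpl36a also fell, by 3.24-fold (rpl36a) to 19.97-fold (rpl28).

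rpl32, rpl13a and rpl21 fell comparatively little. rpl32 had the highest level of any member in each of the 6 libraries, with 2116, 2045 and 1839 FPKM in the control MO libraries and 1044, 517 and 724 FPKM after the clec16a MO (log2 difference -1.45, SE 0.24, limma adjusted p = 0.00088). rpl13a, which in human cells also has a role outside the ribosome in silencing inflammatory mRNAs, read 127, 121 and 115 FPKM against 56.1, 38.8 and 44.6 FPKM. rpl21 read 83.3, 81.1 and 73.8 FPKM against 34.4, 19.95 and 26.0 FPKM. In each of these genes the highest clec16a MO library was replicate 1 and the lowest replicate 2, and all 3 stayed below the control MO libraries.

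rpl38, rpl22 and rpl22l1, whose products lie at the surface of the subunit, had the negative differences nearest to 0. rpl38, which in mouse is needed for full translation of certain Hox mRNAs, read 111, 107 and 96.5 FPKM in the control MO libraries and 78.2, 81.1 and 77.4 FPKM after the clec16a MO, a 1.33-fold difference of the means (log2 difference -0.40, SE 0.09, limma adjusted p = 0.0037). Its direction turned with median centring, where it was called higher by 0.29 (limma adjusted p = 0.023). With quantile normalization rpl38 was called lower, at -0.59 (limma adjusted p = 0.00052). rpl22 binds RNA and, in zebrafish, acts with its paralog rpl22l1 on the emergence of blood stem cells, the pair having opposed effects. rpl22 read 37.5, 35.5 and 32.8 FPKM against 30.2, 18.9 and 21.1 FPKM (log2 difference -0.60, SE 0.17, limma adjusted p = 0.015). It was not called with median centring (0.10, limma adjusted p = 0.62) or without control MO replicate 1 or clec16a MO replicate 3 (limma adjusted p = 0.057 and 0.051). With quantile normalization rpl22 was called lower, at -0.51 (limma adjusted p = 0.011). rpl22l1 read 60.6, 54.2 and 50.8 FPKM against 41.6, 52.6 and 44.0 FPKM, so that the groups overlapped (log2 difference -0.26, SE 0.12, limma adjusted p = 0.083). It was called higher by 0.43 with median centring (limma adjusted p = 0.017), and lower by -0.33 with quantile normalization (limma adjusted p = 0.041) and by -0.36 without clec16a MO replicate 2 (limma adjusted p = 0.018).

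The 2 rows called higher were rpl7l1 and the second row of rpl37. rpl7l1, whose yeast counterpart Rlp7 is an assembly factor related to Rpl7, read 41.0, 38.9 and 38.5 FPKM in the control MO libraries and 348, 252 and 314 FPKM after the clec16a MO, a 7.73-fold rise (log2 difference 2.91, SE 0.13, limma adjusted p = 1.1e-06). rpl7 itself read 724, 702 and 680 FPKM against 416, 207 and 297 FPKM, a 2.29-fold fall (log2 difference -1.25, SE 0.23, limma adjusted p = 0.0017) that did not pass with median centring (-0.56, limma adjusted p = 0.051). With quantile normalization rpl7 was called lower, at -1.51 (limma adjusted p = 0.00025). The second row of rpl37 read 4.10, 4.12 and 4.201 FPKM against 7.36, 6.15 and 7.2004 FPKM (log2 difference 0.62, limma adjusted p = 0.0020), while the first row read 247, 230 and 204 FPKM against 20.3, 6.70 and 8.85 FPKM. Summed, the rpl37 rows gave 231 and 18.8 FPKM as group means (log2 difference -3.61, limma adjusted p = 8.8e-06). How reads were divided between rows of the same name or between close copies is not stated in the labels, and the separate values of rpl37, rpl5a and rpl5b, rplp2 and rplp2l, and rpl22 and rpl22l1 are uncertain to that extent.

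**Figure D2:**
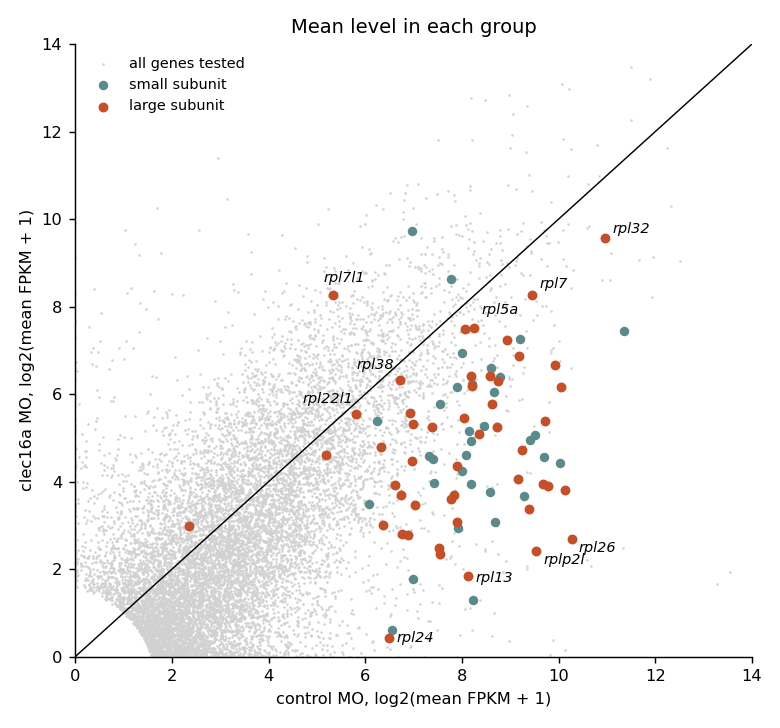
Mean level of each tested gene in the control MO (horizontal) and clec16a MO (vertical) libraries, both as log2(mean FPKM + 1), with n = 3 in each group; red marks the 49 large subunit rows, green the 33 tested small subunit rows, grey all 12153 tested genes, and the line marks equal levels. Both sets of ribosomal protein genes lie mostly below the line, with rpl7l1 above it and rpl38, rpl22l1 and the rpl5 genes close to it.

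The order of the members by level differed between the groups. In the control MO libraries high means included 2000 FPKM for rpl32, 1230 FPKM for rpl26, 1065 FPKM for rpl19 and 977 FPKM for rpl3. The control MO libraries of these genes did not overlap, and those of rpl32 stood clear of all other members. In the clec16a MO libraries the order was rpl32 at 762 FPKM, rpl7 at 307 FPKM, rpl7l1 at 305 FPKM, rpl5a at 183 FPKM and rpl5b at 179 FPKM, and the libraries of rpl7 and rpl7l1 overlapped, as did those of rpl5a and rpl5b. The steps from rpl32 to rpl7 and from rpl7l1 to rpl5a were free of overlap. Over the 49 members, Spearman's rho between the group means was 0.24, and over all 12153 tested genes it was 0.57. Both are descriptions across genes that share libraries. A mean of at least 50 FPKM was reached by 45 of the 49 members but by 1670 of the 12153 genes. The 2 rho values therefore cover unlike ranges of level and cannot be compared directly. The SD of log2(FPKM + 1) among members was 1.59 in each control MO library and 1.88, 1.87 and 2.01 in the clec16a MO libraries.

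Shares within the summed level of the members do not depend on any factor that scales a whole library. rpl32 supplied 10.1% of the members' summed FPKM in the control MO libraries and 23.2% in the clec16a MO libraries. rpl7l1 went from 0.199% ± 0.00624 to 9.66% ± 1.35 (SD, n = 3) and rpl7 from 3.55% to 9.37%. rpl5a and rpl5b went from 1.55% and 1.36% to 5.68% and 5.53%, while rpl26 went from 6.21% to 0.158% and rplp1 from 4.43% to 0.428%. The 5 highest members together supplied 32.1% to 32.4% in the control MO libraries and 52.6% to 54.7% in the clec16a MO libraries.

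Summed over members, the large subunit took 4.10%, 4.01% and 3.82% of the summed FPKM in the control MO libraries and 0.788%, 0.482% and 0.580% in the clec16a MO libraries. The groups did not overlap, and the means were 3.98% ± 0.144 and 0.617% ± 0.156 (SD, n = 3). Within each group the libraries also kept an order. Replicate 1 was the highest clec16a MO library for 46 of 49 members and replicate 2 the lowest for 41, against 41.6% and 37.2% of all tested genes. In the control MO libraries, replicate 1 was the highest for 43 members and replicate 3 the lowest for 42, against 31.4% and 30.8% of all tested genes. The small subunit genes showed the same order, with clec16a MO replicate 1 the highest for 32 of 33. The summed erythroid markers were also highest in clec16a MO replicate 1, at 21451 FPKM, and lowest in replicate 2, at 13966 FPKM. So were the summed macrophage and neutrophil markers, at 4216 and 2880 FPKM, and the summed endothelial markers, at 731 and 605 FPKM. Single markers did not all keep the order of the sums. The globins hbae1.1, hbbe1.1, hbbe2 and hbae3 did, as did lyz, mpx, tek, egfl7, pecam1 and tie1. cahz, alas2 and blvrb were highest in replicate 3 and lowest in replicate 1. hemgn, slc4a1a, mpeg1.1 and fli1a were highest in replicate 3, and npsn and cdh5 in replicate 2. gata1a, spi1b, coro1a, lcp1, kdrl and etv2 were lowest in replicate 3. The summed muscle and epidermal markers were highest in replicate 3, at 25.9 and 99.3 FPKM, and lowest in replicate 2, at 17.3 and 86.9 FPKM. The part of any of these markers in the order of the libraries for ribosomal protein genes was not tested.

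**Figure D3:**
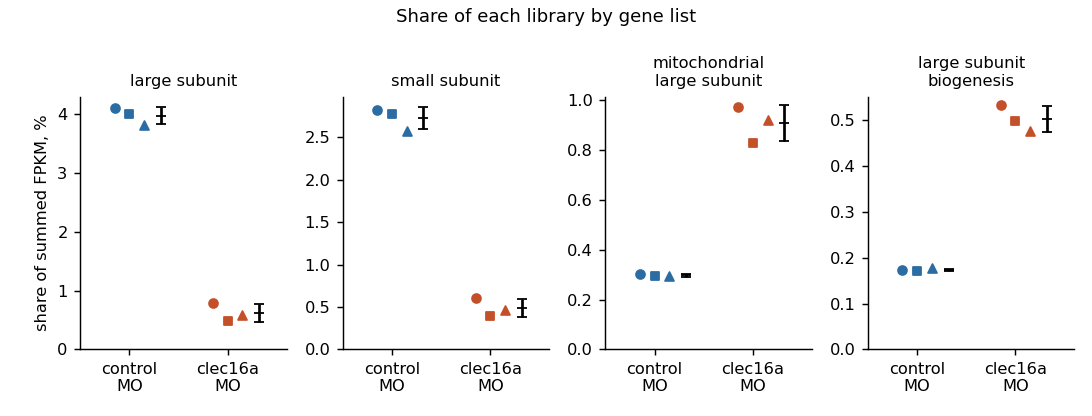
Share of the summed FPKM of each library taken by the genes of 4 lists, in percent; points are libraries (circle, square and triangle for replicates 1, 2 and 3), bars are the mean ± SD of 3 libraries, and each panel has its own axis from 0. The large and small subunit shares are lower in every clec16a MO library, at 0.482% to 0.788% for the large subunit, and the mitochondrial large subunit and biogenesis shares are higher.

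Small subunit genes had similar counts and a similar median. Of 33 tested rows 31 were called lower and 2 higher, against 54.6% and 26.7% of all tested genes. The median log2 difference of the 33 was -3.33. For the large subunit 46 of 49 were called lower, with a median of -3.30. With median centring 29 small subunit rows were lower and 2 higher, against 38.1% and 39.7% of all tested genes. The small subunit share of the summed FPKM went from 2.72% ± 0.130 to 0.486% ± 0.108 (SD, n = 3). The summed large subunit level was 1.45, 1.45 and 1.48 times the summed small subunit level in the control MO libraries and 1.31, 1.24 and 1.24 times in the clec16a MO libraries. That ratio was lower in every clec16a MO library, and no test was made of it. It leans on the paralog rps27l. In the clec16a MO libraries rps27l read 959, 682 and 904 FPKM of small subunit sums of 3289, 1936 and 2436 FPKM. In the control MO libraries it read 128, 121 and 122 FPKM of 14240, 13868 and 12591 FPKM. The ratio therefore does not show which subunit's genes fell more. rps2 fell from 1041 ± 27.1 to 20.6 ± 6.99 FPKM, and rps3 from 93.2 ± 3.04 to 0.530 ± 0.187 FPKM. The 2 that rose were rps18, with 217 ± 10.04 and 397 ± 89.5 FPKM, and the paralog rps27l, with 124 ± 4.05 and 848 ± 147 FPKM. Mitochondrial ribosomes are made from separate genes. Of 47 tested genes of the mitochondrial large subunit, 25 were called higher and 12 lower, against 26.7% and 54.6% of all tested genes. The median log2 difference of the 47 was 0.66, and their summed share went from 0.297% ± 0.00569 to 0.907% ± 0.0719. With median centring 33 of them were higher and 7 lower, against 39.7% and 38.1% of all tested genes.

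Ribosomal proteins whose names fall outside the rule were described from a list. faua, a ubiquitin-like protein fused to a small subunit protein, fell from 458 ± 39.6 to 2.83 ± 1.51 FPKM, and its paralog faub did not pass, at 43.3 ± 2.396 FPKM with the control MO and 37.2 ± 8.58 FPKM with the clec16a MO (log2 difference -0.24, limma adjusted p = 0.23). Leaving out clec16a MO replicate 1 gave -0.39 (limma adjusted p = 0.038), leaving out replicate 2 gave -0.06, and the value was 0.45 with median centring (limma adjusted p = 0.036). rack1, a scaffold bound to the small subunit, fell from 617 ± 2.03 to 10.9 ± 6.42 FPKM.

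Genes for building the large subunit mostly went the other way. Of 39 tested biogenesis genes, 24 were called higher and 9 lower, against 26.7% and 54.6% of all tested genes. The median log2 difference was 0.66 where all tested genes had -0.66. With median centring the counts were 29 and 5, against 39.7% and 38.1% of all tested genes. The nucleolar assembly genes nop16, surf6 and rpf1 rose from 19.2 ± 1.08 to 211 ± 12.2, from 11.1 ± 0.306 to 109 ± 7.40 and from 20.5 ± 0.803 to 173 ± 17.7 FPKM. eif6, which keeps a new large subunit from joining the small subunit, rose from 53.1 ± 3.88 to 325 ± 68.8 FPKM and sbds, which helps to release eif6, from 36.0 ± 3.36 to 345 ± 40.8 FPKM. Rrs1 and Rpf2 bring the 5S particle into the subunit in yeast. rrs1 rose from 24.5 ± 1.17 to 127 ± 25.7 FPKM, while rpf2 fell from 44.6 ± 0.894 to 20.5 ± 1.76 FPKM. Against the majority of the list were also tex10, ddx24 and the GTPase gene gtpbp4, which fell from 19.3 ± 1.13 to 1.40 ± 0.652, from 5.26 ± 0.373 to 0.249 ± 0.0515 and from 42.4 ± 1.54 to 15.1 ± 3.63 FPKM.

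**Figure D4:**
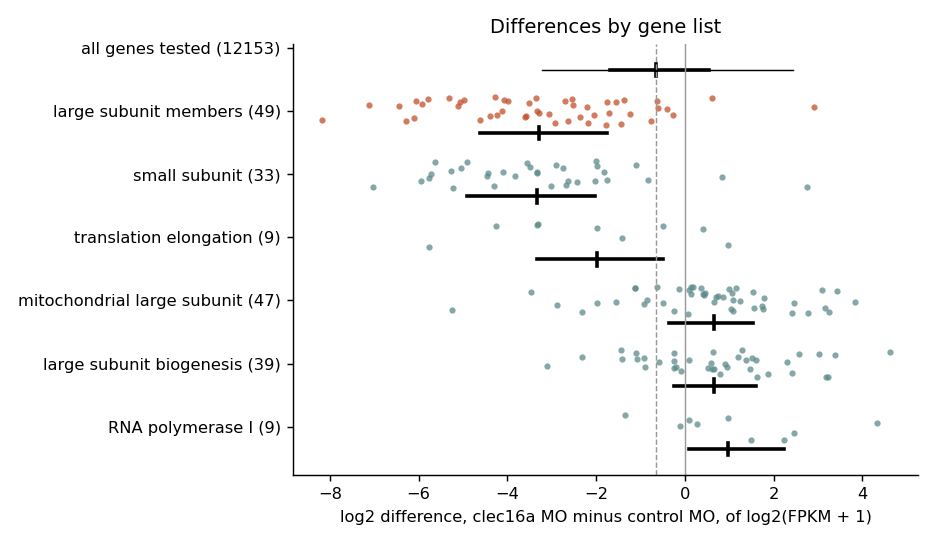
Log2 difference (clec16a MO minus control MO, of log2(FPKM + 1)) of each tested gene in 6 lists, with the number of genes in brackets; thick bars span the middle 50% of the genes with a tick at the median, the thin bar of all tested genes spans their 5th to 95th percentile, and the dashed line marks their median of -0.66. The ribosomal protein lists sit to the left, with medians of -3.30 and -3.33, and the biogenesis list to the right of the dashed line, with a median of 0.66.

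Neighbouring parts of the protein synthesis pathway were mixed. For RNA polymerase I and the supply of 5S RNA, 6 of 9 tested genes were called higher and 1 lower, against 26.7% and 54.6% of all tested genes. The counts were 8 and 1 with median centring, against 39.7% and 38.1%, and 8 and 1 with quantile normalization, against 38% and 39.8%. polr1c, a subunit shared by polymerases I and III, rose from 8.48 ± 0.617 to 190.2 ± 7.37 FPKM, and ubtf, a polymerase I factor, fell from 17.1 ± 0.734 to 6.26 ± 1.93 FPKM. Translation elongation had 7 of 9 tested genes lower and 2 higher, against 54.6% and 26.7% of all tested genes. eef1a1l1, which brings aminoacyl-tRNA, fell from 605 ± 3.38 to 58.7 ± 1.08 FPKM and eef2b, which moves the ribosome along, from 420.2 ± 2.81 to 6.87 ± 1.97 FPKM, while eif5a rose from 376 ± 2.45 to 502 ± 3.96 FPKM, as did eif5a2, with 184 ± 3.15 and 366 ± 53.05 FPKM. The eif5a call ended with quantile normalization (log2 difference 0.19, limma adjusted p = 0.079). The list of regulators of TOP mRNAs also holds the Myc genes myca and mycb. Of its 13 tested genes 7 were lower and 3 higher, or 53.8% and 23.1%, close to the shares of all tested genes. With median centring 5 were lower and 5 higher, against 38.1% and 39.7% of all tested genes. Quantile normalization gave the same counts, against 39.8% and 38%. Among these regulators mtor fell from 5.08 ± 0.220 to 1.06 ± 0.289 FPKM. eif4ebp1, a translation repressor that mTOR inactivates, rose from 69.7 ± 1.88 to 389 ± 43.2 FPKM. The genes tsc2 and myca fell too, with log2 differences of -1.95 and -2.41, while mycb rose by 1.99. The 3 that did not pass included eif4ebp2. In the p53 pathway, which free Rpl5 and Rpl11 act on, 4 of 10 genes were called higher, 1 lower and 5 did not pass, where 26.7% of all tested genes were called higher and 54.6% lower. With median centring 8 were higher and 1 lower, against 39.7% and 38.1% of all tested genes. With quantile normalization the counts were 7 and 1, against 38% and 39.8%. mdm2 rose from 7.03 ± 0.0757 to 29.3 ± 1.69 FPKM, ccng1 rose to 757 ± 59.0 FPKM, its control MO level being 171 ± 2.88 FPKM, and sesn1 fell from 56.9 ± 0.947 to 11.4 ± 1.59 FPKM.

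Some assembly factors are relatives of a ribosomal protein, and some of these hold its place on the unfinished subunit. 3 pairs of a ribosomal protein and a related assembly factor were set side by side after their values had been seen. In yeast, Mrt4 occupies the site of P0 until P0 replaces it. mrto4, its zebrafish counterpart, read 18.8, 17.3 and 16.8 FPKM in the control MO libraries and 479, 447 and 453 FPKM after the clec16a MO, and its share of the summed rplp0 and mrto4 level went from 2.58% ± 0.117 to 98.0% ± 0.672 (SD, n = 3). rsl24d1, the counterpart of yeast Rlp24, which is exchanged for Rpl24 in the cytoplasm, read 47.5, 49.6 and 49.0 FPKM against 87.9, 66.0 and 79.4 FPKM. Its share of the summed rpl24 and rsl24d1 level went from 35.3% ± 2.39 to 99.6% ± 0.453. rpl24 was listed at 0 in clec16a MO replicate 2, which sets the share there at 100%. In replicates 1 and 3 rpl24 read 0.791 and 0.247 FPKM, so the clec16a MO share rests on rpl24 values near 0. rpl7l1 was paired with rpl7 only as its relative, with no exchange at a shared site implied. It went from 5.32% ± 0.0618 to 50.6% ± 4.72 of its sum with rpl7. In each pair the mRNA of the assembly factor rose and that of the ribosomal protein fell, though for rpl7 the fall depended on scaling as given above. Pairs in which both paralogs are ribosomal proteins were described as well. Because the assembly factor pairs were chosen after their values were seen, the 2 kinds of pair cannot be contrasted. rpl5b held 46.7% ± 0.606 and 49.3% ± 2.21 of the rpl5 level, and rpl22l1 61.0% ± 0.692 and 66.3% ± 7.88 of its sum with rpl22, with overlapping libraries in both cases. rplp2l went from 56.3% ± 0.473 to 21.9% ± 2.88 of its sum with rplp2.

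**Figure D5:**
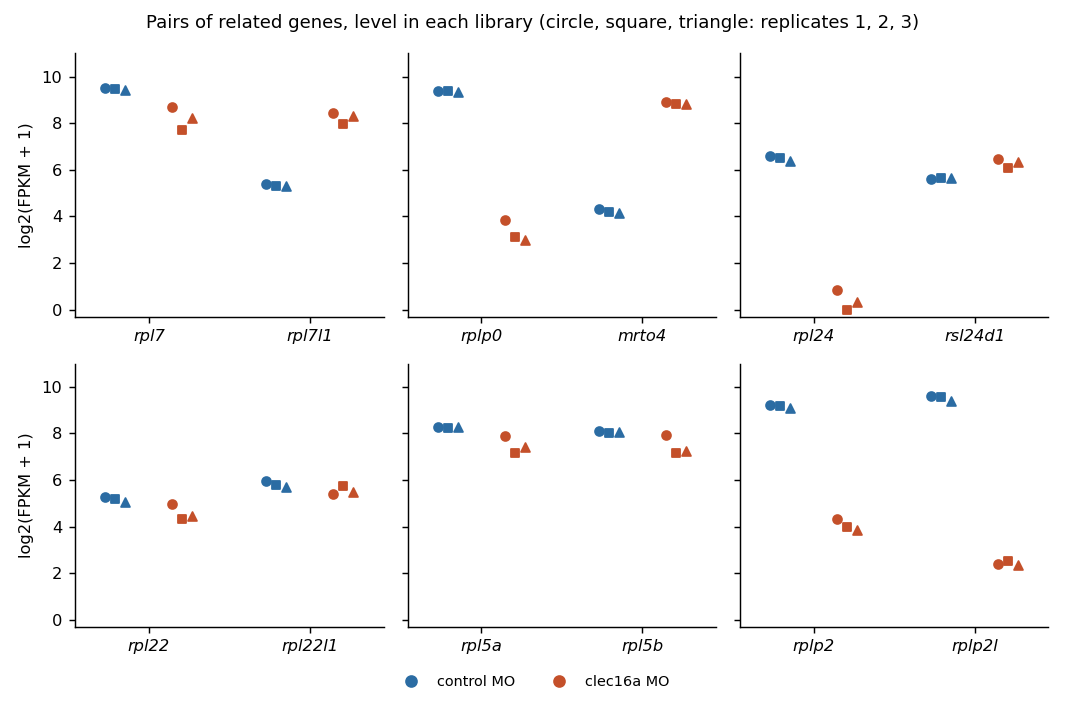
Level of both genes of 6 pairs in each library, as log2(FPKM + 1); blue points are control MO and red points clec16a MO libraries, with a circle, square and triangle for replicates 1, 2 and 3. In the upper row the assembly factor on the right (rpl7l1, mrto4, rsl24d1) is higher and the ribosomal protein on the left lower in the clec16a MO libraries, and in the lower row rplp2 and rplp2l lie far lower while the other pairs lie close to their control MO levels.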

How the data were processed

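The authors deposited FPKM values, 1 column per library, in a single table. Per the submitters' processing notes, cutadapt 1.9, HISAT2 2.2.1 and StringTie 2.1.6 were used; their settings, the genome build and its annotation were not given in the sources, so coordinates and sequences are left out. Per the labels' protocols, total RNA was copied by SMARTer chemistry (oligo(dT) priming with template switching), amplified by PCR, fragmented and sequenced in pairs, with no step that marks strand. Of 21853 rows, 16 were named by a calendar date and left out. Of the 48 member names, 47 are symbols or synonyms in the RefSeq gene table of assembly GRCz12tu, used for names only. Depth is unknown and no counting interval can be given.

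Values were tested as log2(FPKM + 1), which understates the change of low genes, for rows with a mean of at least 1 FPKM. limma 3.58.1 (R 4.3.3) was fitted on all 12153 such rows with a mean-variance trend and group as the only term, two-sided, with Benjamini-Hochberg adjustment over all of them and a threshold of 0.05. On simulated data made from these libraries' levels and spread, 99 of 100 genes changed by 2 on the log2 scale and 61 of 100 changed by 1 were called, among 12153 genes. No other genes were changed there, whereas 6638 were called lower and 3239 higher in the real data. The Benjamini-Hochberg adjustment was therefore stricter in the simulation, and its shares do not give the power here. Figures were drawn with matplotlib 3.10.9. Summed levels, shares and medians over members carry no test. Groups come from the genotype label, since the library titles do not name the morpholino, and replicate numbers follow sample order.

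Named genes were clec16a; members called higher or not passing; the 10 most and 10 least negative differences; members of the stalk, 5S particle, peptidyl transferase and tunnel roles, of Diamond-Blackfan anaemia and with repeated rows; ribosomal proteins outside the rule; and up to 4 genes of each other list by adjusted p, with up to 4 that went against it. The remaining members named, and eif6, sbds, rrs1, mtor and tsc2, fall outside that rule and were chosen after their values were seen. One member and one gene outside the rule are counted in totals but not reported here. The members and lists were chosen with earlier results of these data known. The roles by which the text orders the members were rearranged after the values had been seen: rplp2l and rpl12 were added to the stalk, rpl19 and rpl23a to the tunnel, and rpl22, rpl23 and rpl38 were taken out of the tunnel, so the counts and medians by role are descriptions. Alternatives were other pseudocounts, filters, scalings, summed rows, tests, a replicate block and leaving out each library.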

Additional observations from a re-analysis of the deposited data

How the results depend on the processing

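The count of members called lower was 41 with median centring, 47 with quantile normalization and 46 with pseudocounts of 0.1 and 0.5, no filter, a filter of 5 FPKM, libraries scaled to an equal sum, rows of one name summed, no trend and array weights. Over all tested genes, those called lower were 4632 with median centring and 4835 with quantile normalization, of 12153. With pseudocounts of 0.1 and 0.5 they were 6516 and 6595 of 12153. They were 10430 of 21837 with no filter, 3472 of 7082 with the filter of 5 FPKM and 7979 of 14159 with equal sums. Summed rows gave 6561 of 11995, and no trend and array weights gave 6623 and 6691 of 12153. Leaving out each library gave 44 to 46 members lower, where 6161 to 6798 of all 12153 tested genes were called lower. The medians of the members were then -3.47 to -3.09. The members' share of summed FPKM was 3.91% to 4.05% in the control MO and 0.531% to 0.684% in the clec16a MO libraries. Members called higher were 4 with median centring (rpl38 and rpl22l1 in addition) and 1 with rows of one name summed, against 2. Over all tested genes, those called higher were 4819 of 12153 and 3187 of 11995, against 3239 of 12153. Biogenesis genes called lower were 5 with median centring and 5 with the filter of 5 FPKM, which tests fewer genes, against 9. Median centring turned the log2 differences of rpl22 to 0.10, rpl22l1 to 0.43, rpl38 to 0.29, rpl5b to 0.070 and faub to 0.45; it removes the shift common to all genes. The replicate numbers share only a position in sample order: deviations of same-numbered libraries correlated at 0.04, -0.02 and 0.01 across genes, and not every library correlated best with its own number. With a replicate block 46 members were called lower and 2 higher, where 6604 and 3239 of all 12153 tested genes were. With 3 libraries per group and no depth, small differences such as those of rpl22, rpl22l1 and rpl5b cannot be settled, and values near 0 FPKM cannot be told from 0.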
